A study of Homo sapiens with 4 samples.

Results

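The genes described here are CLCA2, DNAI3 and 8 genes that lie near them in chromosome band 1p22, namely LPAR3, MCOLN2, MCOLN3, SYDE2, BCL10, ODF2L, CLCA1 and CLCA4. Each is measured by 1 probe set, so they are 10 of the 18417 genes measured, and account for 10 of the 19460 probe sets to which the platform annotation gives a single gene symbol. CLCA2 and DNAI3 were chosen by their log2 fold changes, which are among the largest rises between induced and uninduced arrays, so their values are given as a description with no test, whereas the other 8 were taken from the same stretch of chromosome, which holds 5 more measured genes. The RNA came from H1299 cells, a p53-null line of human lung carcinoma, in which mouse p53 had been placed stably under tet-on control. Induced cells had received doxycycline at 0.5 µg/mL for 24 hours to switch the transgene on, and uninduced cells were the same line before induction. Both were kept in medium with 10% tetracycline-free serum, and there were 2 arrays of each. The labels call the arrays of a group technical replicates, so p-values measure only the spread between arrays, and their number limits the precision. The labels do not say whether the stable line is a single clone. No sample received the drug without the transgene, so effects of p53 and of doxycycline cannot be told apart.

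The CLCA genes encode related proteins of epithelia that carry a metalloprotease domain and act on chloride conductance from outside the channel itself. CLCA2 is known as a p53-inducible gene that restrains the growth of epithelial cells, and CLCA1 as a product of mucus-secreting goblet cells. DNAI3, formerly WDR63, encodes an intermediate chain of an inner-arm dynein, the motor that bends motile cilia. LPAR3 is a G protein-coupled receptor for lysophosphatidic acid, MCOLN2 and MCOLN3 are cation channels of endosomes and lysosomes, BCL10 is the adaptor through which CARD proteins and MALT1 activate NF-kB, and ODF2L is a relative of the centriolar protein ODF2. In the RefSeq gene order the run goes LPAR3, MCOLN2, MCOLN3, DNAI3, SYDE2, BCL10, ODF2L, CLCA2, CLCA1, CLCA4, with 5 other measured genes in between. MCOLN3 and DNAI3 point away from each other, with their starts 13.8 kb apart in GRCh38.p14. The CLCA2 start lies 27.8 kb from the nearest ODF2L start and 44.8 kb from that of CLCA1. Between the starts of DNAI3 and CLCA2 themselves there are 1361.8 kb.

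RefSeq promoter windows of GRCh38.p14, from 250 bases before to 50 bases after a start, were matched for 9 of the 10 genes; MCOLN2 was not matched. The windows of the 3 CLCA genes are shown because these relatives lie side by side and CLCA2 is a large rise, and that of DNAI3 because it is the other large rise. The CLCA2 window is chr1:86423921-86424220, the CLCA1 window chr1:86468677-86468976, the CLCA4 window chr1:86546828-86547127 and the DNAI3 window chr1:85062077-85062376, all on the plus strand. In the CLCA windows capitals mark, where there is one, the closest pair of p53 half-sites, defined as 2 matches to the 10-base consensus 0 to 13 bases apart with at most 3 mismatches over their 20 bases. In the DNAI3 window capitals mark GTTGCC on either strand, which reads GGCAAC on the strand shown and is an arm of the X-box bound by RFX factors.
CLCA2: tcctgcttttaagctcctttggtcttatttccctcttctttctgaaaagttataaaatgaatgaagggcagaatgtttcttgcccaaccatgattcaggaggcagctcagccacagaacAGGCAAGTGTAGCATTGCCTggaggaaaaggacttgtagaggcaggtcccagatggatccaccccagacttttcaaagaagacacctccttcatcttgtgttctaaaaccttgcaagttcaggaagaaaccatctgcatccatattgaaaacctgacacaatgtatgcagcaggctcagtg
CLCA1: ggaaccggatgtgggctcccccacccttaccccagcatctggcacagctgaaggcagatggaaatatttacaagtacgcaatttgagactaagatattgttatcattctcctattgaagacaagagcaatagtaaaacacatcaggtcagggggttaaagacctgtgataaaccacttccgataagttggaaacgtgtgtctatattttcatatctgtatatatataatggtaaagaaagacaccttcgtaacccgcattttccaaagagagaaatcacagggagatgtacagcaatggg
CLCA4: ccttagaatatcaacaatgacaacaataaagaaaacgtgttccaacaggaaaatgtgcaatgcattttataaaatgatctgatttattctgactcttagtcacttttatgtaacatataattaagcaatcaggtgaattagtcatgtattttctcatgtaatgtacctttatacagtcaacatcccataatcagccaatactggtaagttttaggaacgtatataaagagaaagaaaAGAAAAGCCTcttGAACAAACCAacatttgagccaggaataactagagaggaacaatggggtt
DNAI3: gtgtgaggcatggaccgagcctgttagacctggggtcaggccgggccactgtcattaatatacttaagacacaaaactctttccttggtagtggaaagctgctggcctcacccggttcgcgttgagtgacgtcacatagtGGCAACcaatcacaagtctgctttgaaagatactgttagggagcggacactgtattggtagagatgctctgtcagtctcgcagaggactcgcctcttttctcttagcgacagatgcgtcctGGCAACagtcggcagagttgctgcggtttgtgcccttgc

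In the CLCA2 window the 2 marked half-sites adjoin each other, the first beginning at position -131 and the second at -121, with the start as position 0. The first had 1 mismatch to the consensus and the second 2. The CLCA4 window also held a pair with 3 mismatches, beginning at position -13, and such pairs were also in the window of BCL10 and in 2 of the 3 ODF2L windows. The windows of CLCA1, DNAI3, LPAR3, MCOLN3 and SYDE2 held none. Such a pair was found in 39.1% of the 35114 promoter windows of the table, and an exact half-site, which no window of the 10 genes had, in 6.63%. GTTGCC occurred at positions -110 and 11 of the DNAI3 window, and the first match shares a base with a CCAAT box at -105. Of all windows, 12.2% held GTTGCC and 34.6% held CCAAT on either strand. Among the other genes, GTTGCC was found only in 1 of the 3 ODF2L windows, and CACGTG in no window of the 10 genes (7.26% of all windows). TATAAA was found in the windows of CLCA2, CLCA4 and 2 of ODF2L, against 11.5% of all windows. These matches describe letters in the windows and were not tested against the expression values.

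CLCA2 (probe set 7902702) had levels of 9.57 and 9.80 log2 units on the induced arrays, against 4.62 and 4.43 on the uninduced arrays. Both induced values lay far above both uninduced ones, with 4.95 log2 units between the nearest arrays of the groups, while arrays of the same group differed by 0.23 and 0.19. Its log2 fold change was 5.16 (SE 0.11), a 35.8-fold higher level after induction and the rise ranked 3 of 19460; in RNA of whole cultures, more cells expressing a gene and more of its RNA per cell cannot be told apart. DNAI3 (probe set 7902660) reached 10.23 and 10.29 on the induced arrays, against 5.91 and 6.03 on the uninduced arrays. These groups also stood apart, by 4.2 log2 units, with differences of 0.06 and 0.12 within a group. The log2 fold change of DNAI3 was 4.29 (SE 0.088), or 19.6-fold, ranked 9 among the rises. The probe sets ranked next to CLCA2 were those of FLJ36000 (5.43) and PDE3A (4.61), and next to DNAI3 those of ADGRG1 (4.47) and LAMP3 (4.26). An absolute log2 fold change at least as large as that of DNAI3 was seen for 0.0462% of all probe sets. That share restates the rank of DNAI3, which was chosen for its rise, and is no test. CLCA2, SYDE2, CLCA1 and CLCA4 had mean levels under the 40th percentile of all probe sets, and the uninduced means of CLCA2 and DNAI3 stood at percentiles 4.32 and 18.2 of all probe sets. No detection call was used, so neither uninduced level is shown to be above background, and both folds and ranks are of the measured values only.

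**Figure D1:**
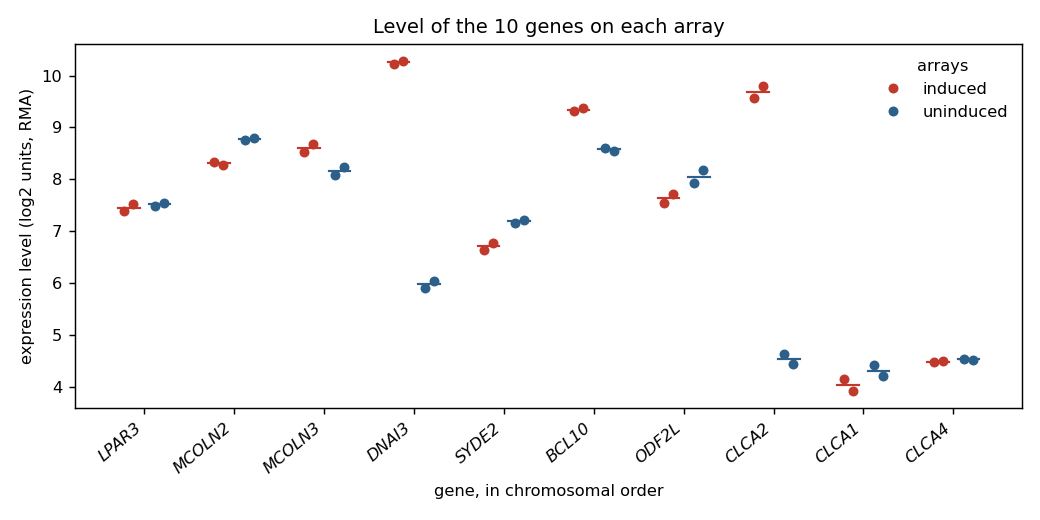
Expression level in log2 units (vertical axis) of the 10 genes in chromosomal order (horizontal axis); each point is 1 array, induced left of uninduced, and each bar the mean of 2 arrays. The induced and uninduced points of CLCA2 and DNAI3 are more than 4 log2 units apart, those of the other 8 genes less than 1.

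The relatives of CLCA2 in the same cluster did not pass the test, at levels between percentiles 1.75 and 4.32 of all probe sets in both groups, so a response could have gone unmeasured. CLCA1 (probe set 7902721) had 4.14 and 3.91 log2 units on the induced arrays, against 4.41 and 4.2 on the uninduced arrays. The groups did not overlap, but the gap of 0.06 between them was smaller than the differences of 0.23 and 0.21 within them. Its log2 fold change was -0.28 (SE 0.12, 95% interval -0.55 to -0.0069, adjusted p = 0.0929 in limma's test over all single-symbol probe sets), and it lay between -0.40 and -0.17 with 1 array left out. CLCA4 (probe set 7902738) had 4.47 and 4.49 on the induced arrays, against 4.53 and 4.52 on the uninduced arrays. Those 4 values lay within 0.06 of each other, although the groups did not overlap, and the log2 fold change was -0.045 (SE 0.080, interval -0.24 to 0.15, adjusted p = 0.716). The pseudogene CLCA3P, next after CLCA4 in gene order, had 4.74 and 4.4 on the induced arrays and 4.63 and 4.57 on the uninduced arrays, with overlapping groups (a difference of -0.03 log2 units, SE 0.12, adjusted p = 0.881). The 12 other genes listed for calcium-activated chloride conductance split, with 2 higher, 3 lower and 7 not past the test. Over all genes the shares were 20.5% higher and 24.4% lower. SLC12A2, the cotransporter that loads cells with chloride, fell by 2.04 log2 units (SE 0.095), and TTYH3, of the tweety chloride channel family, rose by 1.82 (SE 0.087). ANO1, the main calcium-activated chloride channel of airway epithelium, differed by 0.15 log2 units between the groups (SE 0.098, adjusted p = 0.297).

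Of the other 8 genes, 2 rose, 3 fell and 3 did not pass limma's test at an adjusted p under 0.05. All 10 genes together gave 4 higher and 3 lower, where 20.2% of all single-symbol probe sets were called higher, 24.5% lower and 44.7% in either direction; since the comparison chose CLCA2 and DNAI3, nothing is read from that count. None of the 8 changed 2-fold, a call made for 6.39% of all probe sets upward and 6.73% downward. Their median log2 fold change was -0.17, against 0.0 for all probe sets. The groups did not overlap for 7 of the 8, against 66.7% of all probe sets. With either uninduced array left out 3 of the 10 genes were called, and with either induced array left out 5, against 7 with all arrays.

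BCL10 (probe set 7917338) showed the largest change of the 8. It had 9.31 and 9.37 log2 units on the induced arrays, against 8.61 and 8.55 on the uninduced arrays. Both induced values were above both uninduced ones by at least 0.70, with 0.06 between the arrays of either group. BCL10 rose 1.69-fold (log2 fold change 0.76, SE 0.083, adjusted p = 2.3e-04), and it was the only one of the 5 called genes of the 8 whose call held whichever array was left out. Of 16 other measured genes of CARD, BCL10 and MALT1 signalling, 6 were called higher and 5 lower, against 20.5% and 24.4% of all genes. Its binding partner MALT1, the paracaspase of the complex, fell by 1.38 on the log2 scale (SE 0.11), and IKBKB, a kinase downstream of the complex, rose by 1.38 (SE 0.089). The NF-kB genes NFKB1 and NFKBIA had log2 fold changes of 0.80 and 0.61, and RELA one of -0.53. The RELA call was lost without induced array 1 (adjusted p = 0.0775), induced array 2 (0.094) or uninduced array 1 (0.0729).

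MCOLN2 and MCOLN3, neighbours of related sequence, moved in opposite directions. MCOLN2 (probe set 7917283) had 8.34 and 8.27 log2 units on the induced arrays, against 8.75 and 8.79 on the uninduced arrays. Its induced values were both lower, and MCOLN2 fell by 0.47 (SE 0.083, adjusted p = 0.00278). MCOLN3 (probe set 7917304), which borders DNAI3, had 8.53 and 8.68 on the induced arrays, against 8.09 and 8.24 on the uninduced arrays. The groups stood 0.29 apart with 0.15 between the arrays of each, and MCOLN3 rose by 0.44 (SE 0.098, adjusted p = 0.00818), compared with 4.29 for the adjoining DNAI3. The call of MCOLN3 was lost whichever array was left out (adjusted p = 0.0517 without induced array 1, 0.0896 without induced array 2, 0.131 without uninduced array 1 and 0.0697 without uninduced array 2). That of MCOLN2 was lost without uninduced array 1 (0.0541) or 2 (0.0649). The third family member, MCOLN1, the lysosomal channel mutated in mucolipidosis, differed by -0.16 log2 units (SE 0.085, adjusted p = 0.185). Among MCOLN1 and the other listed genes of endolysosomal channels and their regulators, 12 in all, 5 rose, 2 fell and 5 did not pass. Each of these rises and falls lost its call when some array was left out. No 2-fold change was seen among the 12. Over all genes 20.5% rose and 24.4% fell, 6.48% and 6.77% by 2-fold or more. CLCN7, the lysosomal chloride-proton exchanger, rose by 0.77 (SE 0.11) and the lysosomal membrane gene LAMP1 by 0.52 (SE 0.083), calls lost without induced array 2 for CLCN7 (adjusted p = 0.0566) and without uninduced array 2 for LAMP1 (0.053).

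SYDE2 (probe set 7917322) had 6.64 and 6.77 log2 units on the induced arrays, against 7.16 and 7.21 on the uninduced arrays. The induced values were lower without overlap, and SYDE2 fell by 0.48 (SE 0.088, adjusted p = 0.00325), a call lost without uninduced array 1 (0.0643) or 2 (0.0795).

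ODF2L (probe set 7917433), the gene before CLCA2, had 7.55 and 7.72 log2 units on the induced arrays, against 7.92 and 8.17 on the uninduced arrays. The induced values were lower by at least 0.20, a gap no wider than the difference of 0.25 between the uninduced arrays. ODF2L fell by 0.41 (SE 0.11, adjusted p = 0.0217), but the call was lost whichever array was left out (adjusted p = 0.208 without induced array 1, 0.105 without induced array 2, 0.0704 without uninduced array 1 and 0.223 without uninduced array 2), after another quantile normalization (0.0513) and with all rows of the table in the fit (0.0621). Its relative ODF2, of the mother centriole's appendages, fell by 1.49 (SE 0.081). Of the 11 listed centriolar appendage and satellite genes other than ODF2L, 4 fell, each at least 2-fold, 3 rose, 1 of them at least 2-fold, and 4 did not pass. SSX2IP showed the largest change of them at -1.55 (SE 0.12). Over all genes 24.4% fell and 20.5% rose, 6.77% and 6.48% by 2-fold or more.

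LPAR3 (probe set 7917276) had 7.38 and 7.52 log2 units on the induced arrays, against 7.48 and 7.55 on the uninduced arrays. The groups overlapped, and the log2 fold change was -0.065 (SE 0.090, 95% interval -0.28 to 0.15, adjusted p = 0.63). Of the 11 other listed genes of lysophosphatidic acid receptors and enzymes, 2 were higher, 1 was lower and 8 did not pass the test. Over all genes 20.5% were called higher and 24.4% lower. The receptor gene LPAR1 rose by 0.49 (SE 0.11, adjusted p = 0.0108), a call lost without induced array 1 (0.13), induced array 2 (0.158) or uninduced array 1 (0.11). Among the lipid phosphate phosphatases that degrade the ligand, PLPP2 fell by 1.24 (SE 0.082) and PLPP1 rose by 0.66 (SE 0.096), PLPP1 being not past the test without uninduced array 2 (adjusted p = 0.0529).

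**Figure D2:**
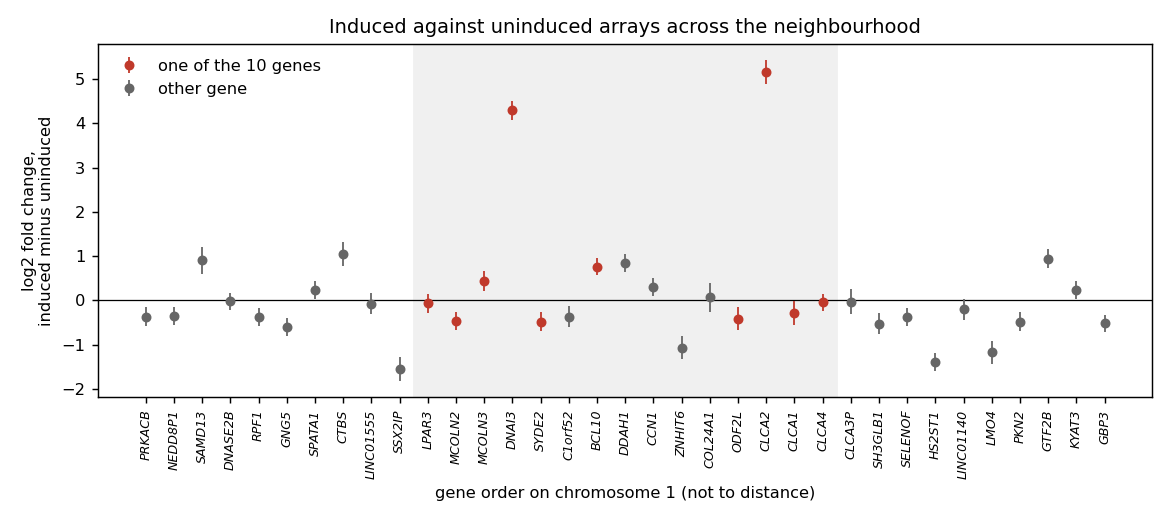
Log2 fold change, induced minus uninduced (vertical axis, bars are 95% intervals of the fit), for 35 genes in RefSeq order on chromosome 1 (horizontal axis, not to distance); the shaded part runs from LPAR3 to CLCA4. DNAI3 at 4.29 and CLCA2 at 5.16 stand above all other genes of the stretch, the highest of which is CTBS at 1.06.

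Within the same stretch of chromosome, 5 measured genes are not among the 10. Of these, 2 rose, 2 fell and 1 did not pass. DDAH1, which degrades the nitric oxide synthase inhibitor dimethylarginine, had 11.30 and 11.37 log2 units on the induced arrays, against 10.51 and 10.47 on the uninduced arrays, and rose by 0.85 (SE 0.083). CCN1, a matricellular protein, rose by 0.31 (SE 0.085, adjusted p = 0.0222). ZNHIT6, an assembly factor of small nucleolar ribonucleoproteins, had 8.24 and 8.48 on the induced arrays, against 9.37 and 9.48 on the uninduced arrays, and fell by 1.07 (SE 0.11). C1orf52 fell by 0.37 (SE 0.099, adjusted p = 0.02), and the collagen gene COL24A1 differed by 0.065 (SE 0.13, adjusted p = 0.755). The calls of CCN1 and C1orf52 were lost whichever array was left out, with adjusted p-values of 0.0587 to 0.17 for CCN1 and 0.0663 to 0.205 for C1orf52. Just outside the stretch, SSX2IP, of centriolar satellites, lies next before LPAR3 and had 6.44 and 6.73 on the induced arrays, against 8.07 and 8.19 on the uninduced arrays, a fall without overlap. The lysosomal chitobiase gene CTBS rose by 1.06 (SE 0.12), and LINC01555, which lies between them, differed by -0.075 log2 units (SE 0.099, adjusted p = 0.611). After CLCA3P, the endophilin gene SH3GLB1 fell by 0.53 (SE 0.099, adjusted p = 0.00358) and SELENOF, a selenoprotein gene of the endoplasmic reticulum, fell by 0.37 (SE 0.084, adjusted p = 0.00893). SH3GLB1 was no longer called without induced array 1 (0.0799), induced array 2 (0.0571) or uninduced array 2 (0.0774), and SELENOF without uninduced array 1 (0.106) or 2 (0.0912). Over the 5 interspersed genes and 10 on each side, 5 of 25 rose and 13 fell, where 20.5% of all genes were called higher and 24.4% lower. Their median log2 fold change was -0.36, that of all genes 0.0. With any 1 array left out, fewer of the 25 were called than the 18 with all arrays, as was so over all probe sets.

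Other genes listed with DNAI3, which reach beyond the inner-arm motor to which it belongs, were mostly not called. Of 30 other measured genes of axonemal dyneins, their assembly and their transcriptional control, 21 did not pass the test, 7 fell and 2 rose, where 20.5% of all genes were called higher and 24.4% lower, so most genes measured did not pass either. Their median log2 fold change was 0.002. CCDC39, which sets the spacing of inner arms along the axoneme, had 8.57 and 8.66 log2 units on the induced arrays, against 4.07 and 3.97 on the uninduced arrays. It rose by 4.60 (SE 0.088) over uninduced values at percentile 1.95 of all probe sets, which are not shown to be above background, while CCDC40, the gene of its binding partner, differed by 0.065 log2 units (SE 0.083, adjusted p = 0.597). The other rise was that of DNAH1, an inner-arm heavy chain, at 0.26 (SE 0.083, adjusted p = 0.0379), a call lost whichever array was left out (0.0527 to 0.191). The intermediate chain genes DNAI1, DNAI2, DNAI4 and DNAI7 had log2 fold changes of 0.005, 0.025, 0.0 and 0.12, and none passed the test. In the induced and uninduced groups DNAI7 stood at percentiles 3.489 and 3.047 of all probe sets and DNAI4 at 11.02 and 11.38. A response of DNAI7 or DNAI4 could therefore have gone unmeasured. DNAI1 stood higher, at percentiles 27.49 and 27.2, and DNAI2 at 39.5 and 38.54. DNAAF2, a dynein assembly factor, fell by 1.27 (SE 0.11) and the heavy chain gene DNAH14 by 1.16 (SE 0.095). FOXJ1, the master regulator of motile ciliogenesis, had 7.22 and 7.05 on the induced arrays, against 7.09 and 6.98 on the uninduced arrays, which did not pass (adjusted p = 0.475). Of the RFX factor genes in the list, RFX3 had 6.69 and 6.75 on the induced arrays, against 7.13 and 7.09 on the uninduced arrays. RFX3 fell by 0.39 (SE 0.082, adjusted p = 0.00636), a call lost without uninduced array 1 (0.0881) or 2 (0.0736), and RFX2 did not pass (-0.19, SE 0.14, adjusted p = 0.347).

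**Figure D3:**
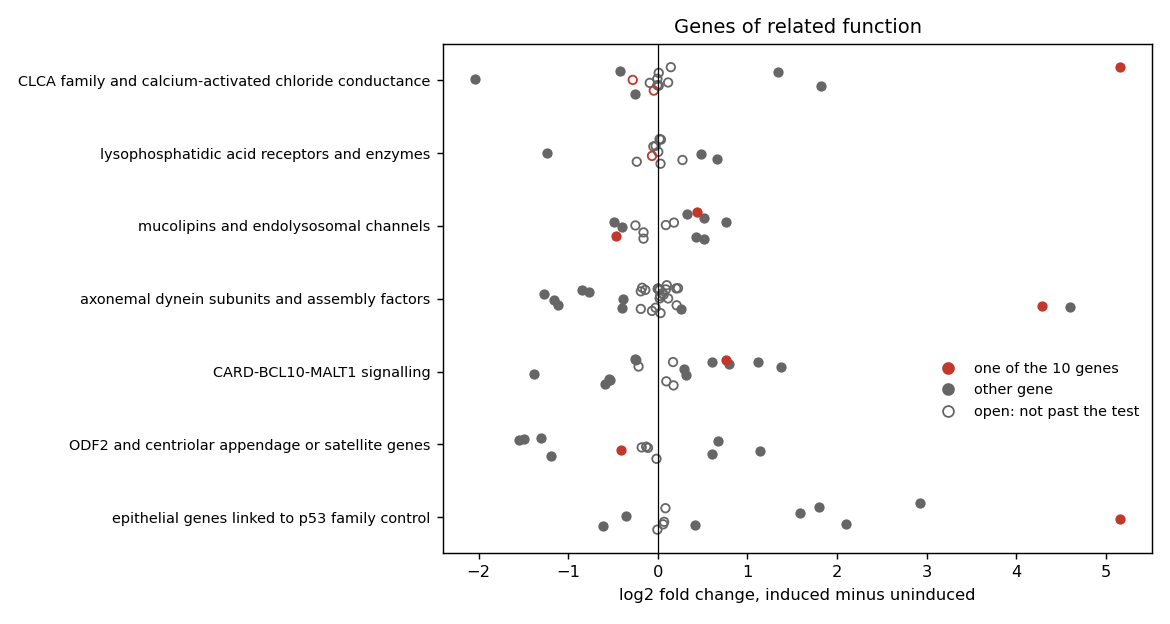
Log2 fold change, induced minus uninduced (horizontal axis), of the genes of 7 lists (vertical axis, points spread only for legibility); filled points passed limma's test at an adjusted p under 0.05 and open points did not. In the dynein list DNAI3 and CCDC39 stand alone above 4, and in the chloride list CLCA2 at 5.16 is followed by TTYH3 at 1.82.

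CLCA2 also belongs to a list of epithelial genes linked to control by the p53 family. Of the 11 others measured, 5 rose, 4 of them at least 2-fold, 2 fell and 4 did not pass. The shares over all genes were 20.5% called higher, 6.48% at least 2-fold higher and 24.4% lower. The list as a set was not tested. SFN rose by 1.80 (SE 0.11), and DST had the larger of the 2 falls, at -0.61 (SE 0.094), a call lost without uninduced array 2. Another of the rises, that of ITGB4 at 0.415 (SE 0.089), lost its call whichever array was left out. JAG2, a Notch ligand, had 11.23 and 11.14 log2 units on the induced arrays, against 8.31 and 8.21 on the uninduced arrays, and rose by 2.93 (SE 0.088). FERMT1, which encodes the integrin activator kindlin-1, rose by 2.10 (SE 0.082). The junction genes differed, as the desmosomal PERP rose by 1.59 (SE 0.081) and CDH1 had a log2 fold change of -0.005 (SE 0.087). Among the keratins of this list, KRT15 fell by 0.35 (SE 0.080), a call lost without uninduced array 1 or 2, and KRT5 and KRT14 did not pass. The same limit holds for KRT5, at percentiles 17.8 and 16.8 in the induced and uninduced groups.

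Likeness to CLCA2 and to DNAI3 was measured as the distance between values centred on each probe set's own mean over the 4 arrays, which with 2 groups of 2 mostly ranks the size of the difference. The probe sets nearest to CLCA2 were those of FLJ36000 (distance 0.352), CCDC39 (0.577) and PDE3A, a phosphodiesterase (0.579). Nearest to DNAI3 were FAM13C (0.0648), the lysosomal membrane gene LAMP3 (0.125) and the stress-activated kinase gene PLK3 (0.181). FAM13C, the closest of all, had 10.68 and 10.71 log2 units on the induced arrays, against 6.37 and 6.54 on the uninduced arrays. CLCA2 and DNAI3 were 0.905 apart.

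Labels were checked on 2 established p53 targets. MDM2 had 12.70 and 12.76 log2 units on the induced arrays, against 9.84 and 9.85 on the uninduced arrays, and CDKN1A had 12.63 and 12.50, against 9.16 and 9.11. Markers of other cells were also read. Of 8 blood markers 2 rose, of 11 fibroblast and endothelial markers 1 and of 10 airway markers 2, and none of these fell, where 20.5% of all genes were called higher. The calls of CD3E among the blood markers and SFTPC among the airway markers were lost whichever array was left out. So was that of TEK, the only call among the fibroblast and endothelial markers. The largest log2 fold changes of the blood, fibroblast and endothelial, and airway lists were those of ITGAM (1.34), TEK (0.34) and SCGB1A1, the club cell secretoglobin (2.03). On the linear scale the summed airway marker level was 10.36 and 10.26 log2 units on the induced arrays, against 9.85 and 9.82 on the uninduced arrays. The summed blood marker level was 10.12 and 10.04, against 9.63 and 9.56, and the fibroblast and endothelial one 10.02 and 9.90, against 9.93 and 9.87. The part of these markers in the results was not tested. Of the markers of an epithelial lung carcinoma line, VIM had 12.35 and 12.29 on the induced arrays, against 12.69 and 12.75 on the uninduced arrays, and KRT18 had 11.10 and 10.98, against 11.10 and 11.17. KRT8 had the largest change of this list, a log2 fold change of 1.15 (SE 0.13). Of its 8 measured markers 1 was called higher and 1 lower, against 20.5% and 24.4% of all genes. KRT19, NKX2-1 and NAPSA stood at percentiles 31.2, 19.6 and 28.6 of all probe sets in the induced group. EPCAM lay between 5.39 and 5.61 on the 4 arrays.

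**Figure D4:**
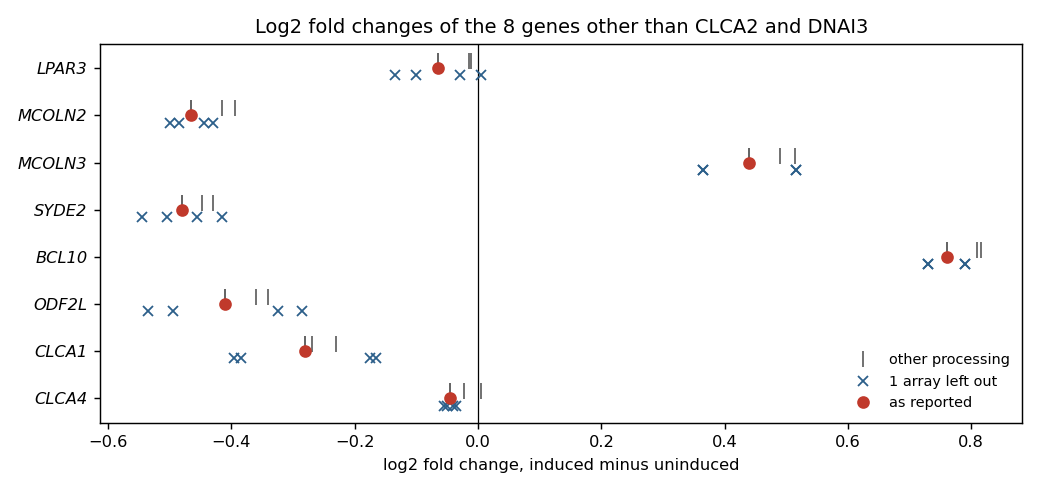
Log2 fold change, induced minus uninduced (horizontal axis), of the 8 genes other than CLCA2 and DNAI3 (vertical axis); circles are the reported values, crosses the values with 1 array left out and ticks those under other processing. BCL10, MCOLN3, MCOLN2, SYDE2, ODF2L and CLCA1 stay on their side of 0, whereas LPAR3 and CLCA4, which did not pass the test, reach 0.005.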

How the data were processed

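Whole-transcript Affymetrix arrays measured 2 induced and 2 uninduced samples. The deposited values are log2 expression levels, made by the authors with Affymetrix Expression Console and RMA per the submitters' processing notes, with versions, settings and genome build not given in the sources used here. RMA gives all arrays 1 distribution, which would hide a shift common to all transcripts, and it compresses the folds of dim genes. Of 33297 rows, 19460 had 1 gene symbol, 1754 several and 12083 none. Gene IDs of 19429 single-symbol rows were found in the RefSeq table of GRCh38.p14, used for names, order and promoter windows.

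Titles gave the groups. The single-symbol rows were fitted in limma 3.58.1 under R 4.3.3 (lmFit, eBayes, no covariate), and two-sided p-values were adjusted over all of them by Benjamini-Hochberg; a probe set was called at an adjusted p under 0.05. SEs are moderated. The fit was tested on simulated data. Neighbours and lists used 1 probe set per gene, the one with the highest mean. Figures used Python 3.11.15 with matplotlib 3.10.9. The gene list fixed around SYDE2 is not reported here. The 10 genes and the lists were chosen with earlier results of these data known.

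Named were all 10 genes; the 5 interspersed genes and 3 on each side; the 2 genes of each pathway list reported and the 1 gene of each marker list with the largest absolute change; the 3 probe sets most like CLCA2 and DNAI3; and MDM2 and CDKN1A. Others, such as ANO1, MCOLN1, LPAR1, NFKB1, CCDC40, DNAH1, DNAH14, PERP, CDH1, the keratins KRT5, KRT14, KRT15 and KRT18, VIM, EPCAM, RELA, NFKBIA, FOXJ1, RFX2, RFX3, CD3E, SFTPC, the other DNAI genes and those in the last paragraph of the document, were picked with their values in view. The alternatives were quantile normalization again, median centring, a filter on dim probe sets, the brightest probe set or the mean per gene, all rows, an intensity trend with a robust prior, the replicate number as a block, and leaving out each array. Without scanner data, background correction stayed as deposited.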

Additional observations from a re-analysis of the deposited data

How the results depend on the processing

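Leaving out 1 array, which assumes that the lone array of a group varies like the others, gave 5085 to 7227 probe sets called against 8705 with all arrays. The same step gave 3 to 5 of the 10 genes against 7, 10 to 14 of the 25 neighbours against 18, and 39 to 53 genes of the pathway lists against 66 (39 without uninduced array 1 and 42 without uninduced array 2), counts that include the list around SYDE2. The counts fell most without an uninduced array, except for the neighbours, where 10 were called without uninduced array 2 and 11 without induced array 1. Under the other alternatives these 4 counts stayed within 1.5 times the reported ones. CLCA2 ranged from 5.05 to 5.28 and DNAI3 from 4.23 to 4.35 over their alternatives, and BCL10 kept its call in all 12. MCOLN2 and SYDE2 each lost the call in 2, MCOLN3 in 4 and ODF2L in 6; the direction of these 4 held throughout. The fit did not pair the arrays by replicate number, since the labels tie the numbers to no shared culture or day. There are 2 pairs only, and whether they share anything is not known. The deviations of arrays with number 1 correlated at 0.221 across probe sets, induced with uninduced. With the replicate block 8146 probe sets and 8 of the 10 genes were called, CLCA1 being the added one at an adjusted p = 0.0374 in limma's test. Without dim probe sets, CLCA2, SYDE2, CLCA1 and CLCA4 had no value. Centring each array moved the median of all probe sets to 0.05. No detection call was used, so a lower limit of measurement was not set.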

Other observations

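Farther from the 10 genes on either side, several genes of the flanks also differed. HS2ST1, a heparan sulfate sulfotransferase gene 4 places after CLCA4, had 7.62 and 7.70 log2 units on the induced arrays, against 9.10 and 9.01 on the uninduced arrays, a log2 fold change of -1.40 (SE 0.086). The LIM-only transcription factor gene LMO4 had 6.49 and 6.73 on the induced arrays, against 7.86 and 7.70 on the uninduced arrays (-1.17, SE 0.11). GTF2B, the general transcription factor TFIIB, had 10.61 and 10.55 on the induced arrays, against 9.70 and 9.57 on the uninduced arrays (0.95, SE 0.089). On the other side SAMD13 had a log2 fold change of 0.90 (SE 0.12), which passed limma's test except without induced array 2 (adjusted p = 0.0662). The G protein subunit gene GNG5 had -0.61 (SE 0.085) on its brightest probe set and -0.80 (SE 0.083) on the other.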
